A study of Mus musculus with 26 samples.

Results

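RNA of the striatum was compared between YAC128 and WT mice at 6 months of age, and the members were 8 of the 26 arrays of the series, 4 of each genotype. They were chosen by the age in their labels, which number it as 6 weeks where the study's methods give 6 months, and by genotype. YAC128 mice were hemizygous for a transgene, the whole human HTT gene on a yeast artificial chromosome with its CAG repeat expanded, and WT mice carried no transgene. Both were on a C57BL6/J background, and the labels name no treatment. The YAC128 arrays were from 1 female (F1) and 3 males (M1, M2 and M3), and the WT arrays from 2 females (F1 and F2) and 2 males (M1 and M2), each labelled as a biological replicate. The remaining 18 arrays were from mice of 12 and 18 months. The labels name no array run, and the study states only that mice of 1 age shared a chip. Whether the ages were run apart is not known here, so age and array run may not be separable. The transgene adds human huntingtin to the intact mouse alleles, which limits the line as a model of a mutated allele at its own locus.

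Huntington's disease is caused by an expanded CAG repeat in huntingtin, and the medium spiny neurons of the striatum are among the cells it affects first. These GABA-releasing projection neurons fall into a direct pathway, marked by the dopamine D1 receptor, substance P and dynorphin, and an indirect pathway, marked by the dopamine D2 receptor and enkephalin. Both kinds are rich in the machinery of dopamine, cyclic AMP and calcium signalling, and many of the genes that set their identity are known to lose expression in mouse models that express mutant huntingtin. A dissected striatum also holds astrocytes, oligodendrocytes, microglia and vascular cells, and the dissection may take along cortex, which lies above it, or choroid plexus of the lateral ventricle.

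Values are log2 intensities that the authors computed by robust multichip average (RMA), and 34760 probesets were tested. Each of 19937 genes is described by its probeset of the highest mean. A difference is YAC128 minus WT on the log2 scale with its standard error (SE) from limma, 4 arrays against 4. No probeset passed an adjusted p of 0.05 (limma, Benjamini-Hochberg), and the lowest adjusted p of any gene was 0.9999. Below, "called" means an unadjusted limma p under 0.05, the threshold the study also used. With this rule 909 probesets (2.62%) were called, 376 lower (1.08%) and 533 higher (1.53%), a share smaller in all than the threshold itself, and each called gene is therefore described without a claim that it changed. Of the genes, 264 (1.32%) were called, 153 lower (0.767%) and 111 higher (0.557%) in YAC128 striata. The split turned further towards lower values with other scalings of the arrays, to 252 lower and 89 higher after quantile normalization and to 228 lower and 52 higher after centring of the arrays on their medians. The called differences were small, with a median size of 0.24 among the lower genes and 0.21 among the higher genes. A size above 0.5 was reached by 11 called genes, and all of them were lower. The arrays of the genotypes did not overlap at all for 136 genes with lower values (0.682%) and 124 with higher values (0.622%), whether called or not.

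The arrays bore the marks of striatum, with Penk (the enkephalin precursor) between 12.45 and 13.38 and Ppp1r1b (DARPP-32) between 10.98 and 12.24 in all 8. They also differed in the levels of genes known from neighbouring tissues. Over 21 genes of cortical projection neurons, the list mean was 9.15 in the WT male M2 and 9.39 in the YAC128 male M2, and between 8.10 and 8.58 in the other arrays. Over 13 genes of choroid plexus and ependyma it was 9.02 in the YAC128 male M1 and 8.19 in the WT male M2, and between 7.29 and 7.54 in the others. Xist was at least 12.1 in the 3 females and at most 7.82 in the 5 males, and Eif2s3y was at most 4.52 in females and at least 8.77 in males, as the labels give the sexes. The array's Htt probeset is designed on the mouse gene and does not check the genotype labels. Htt was at 9.89, 9.73, 9.72 and 9.75 in WT and at 9.85, 9.78, 9.87 and 9.79 in YAC128 striata, a difference of 0.05 (exact permutation of 70 splits, two-sided p = 0.2857, where the smallest possible p is 0.02857).

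**Figure D1:**
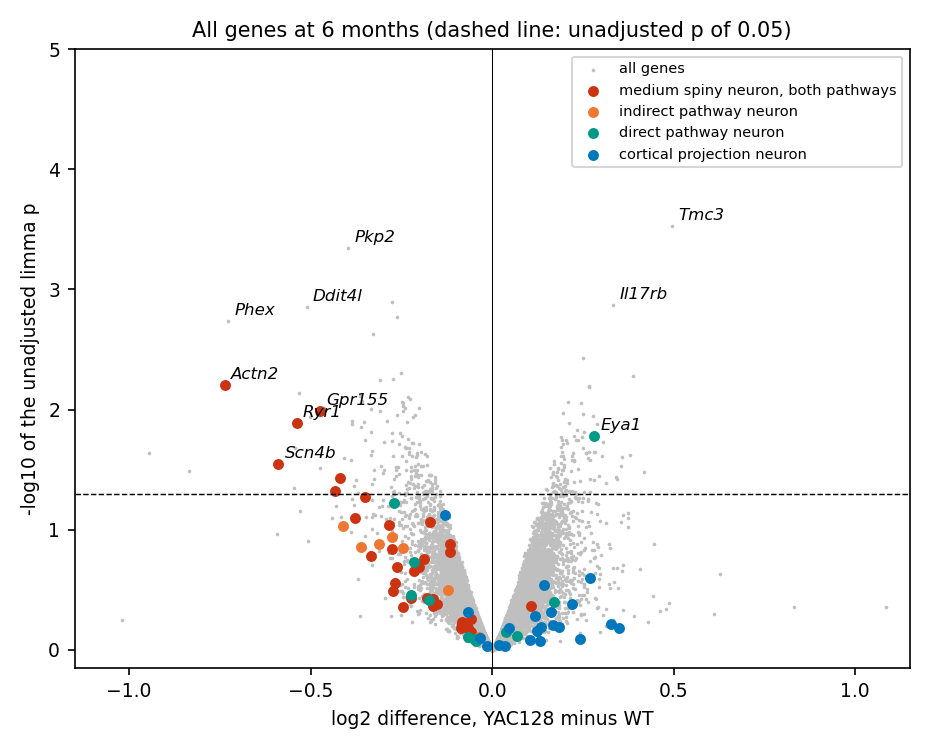
Difference between YAC128 and WT striata (x axis, log2) against the −log10 of the unadjusted limma p (y axis) for 19937 genes, with 4 lists of neuronal genes in colour. Genes of the medium spiny neuron list lie to the left of 0 with 1 exception, and cortical genes lie mostly to the right, none of them above the dashed line.

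Several of the most clearly separated genes were lower in YAC128 striata. Phex encodes a membrane endopeptidase known from phosphate balance. Its level was 7.34, 7.51, 7.63 and 6.84 in the WT arrays F1, F2, M1 and M2, and 6.72, 6.72, 6.33 and 6.64 in the YAC128 arrays F1, M1, M2 and M3. Every YAC128 array lay below every WT array, the M2 array was the lowest of both genotypes, and the difference was −0.73 (SE 0.17). Ddit4l, an inhibitor of mTOR signalling, was at 8.91, 9.23, 9.06 and 8.75 in WT and at 8.60, 8.57, 8.32 and 8.40 in YAC128 striata. Again no array overlapped, and the difference was −0.51 (SE 0.11).

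Pkp2 encodes plakophilin, a plaque protein of desmosomes. It was at 7.32, 7.31, 7.518 and 7.49 in WT and at 7.02, 6.98, 7.08 and 6.96 in YAC128 striata, with the YAC128 arrays close together and all below the WT arrays (difference −0.40, SE 0.075). Galnt13, which starts the addition of O-linked sugars to proteins, was at 9.90, 9.91, 9.94 and 9.40 in WT and at 9.51, 9.37, 8.92 and 9.22 in YAC128 striata. Here the WT male M2 stood well apart from the other WT arrays and fell within the YAC128 range (difference −0.53, SE 0.16). Sec14l3, a lipid-binding protein of the Sec14 family, had a difference of −0.33 (SE 0.079), and Dgat2l6, a member of the diacylglycerol acyltransferase family, of −0.27 (SE 0.076), each without overlap.

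Other genes of small p were also lower without overlap. Atf6, a sensor of misfolded proteins in the endoplasmic reticulum, lay between 9.65 and 9.84 in WT and between 9.43 and 9.53 in YAC128 striata (difference −0.25, SE 0.069). Pmp22, a membrane protein of myelin in peripheral nerve, lay between 10.37 and 10.55 in WT and between 10.17 and 10.28 in YAC128 striata (difference −0.23, SE 0.068). Htra1, a secreted serine protease, had a difference of −0.25 (SE 0.075), and so had Xdh, the xanthine dehydrogenase of purine breakdown (SE 0.075). The remaining genes among the 15 of smallest p in this direction were Olfr775, Vmn2r71, Mir18 and Pmis2, with Olfr775 at −0.28 (SE 0.060) and the others between −0.36 and −0.23. All 4 were in every array under the level of 6.78 that 90% of the olfactory receptor genes do not exceed, which is taken here as the level of genes that a striatum is not known to use. The mean of Dgat2l6 was also under this level, though not each of its arrays.

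**Figure D2:**
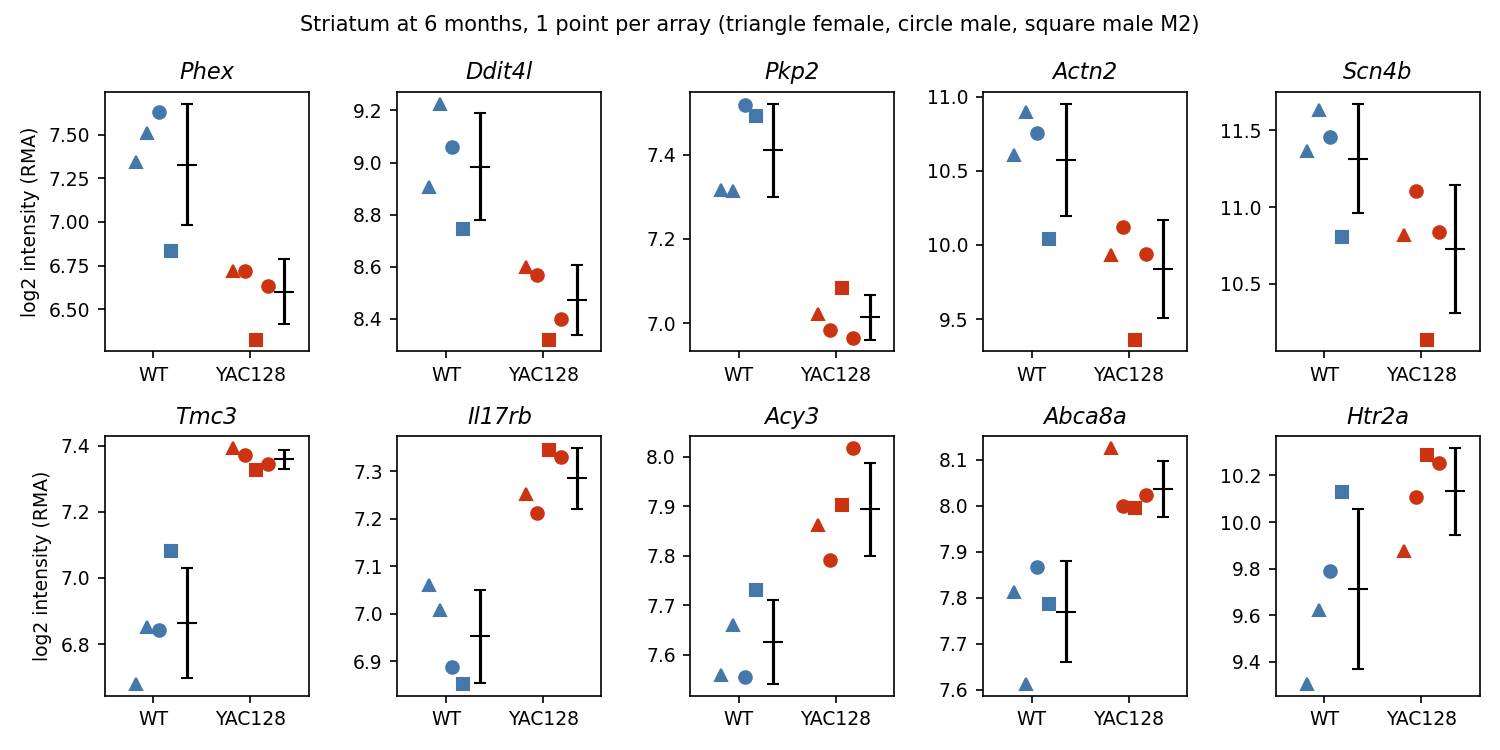
Log2 RMA intensity (y axis) of 10 genes in the 4 WT and 4 YAC128 arrays of 6 months, 1 point per array, with the mean and SD (n = 4) beside the points. In Phex, Ddit4l, Pkp2, Tmc3, Il17rb, Acy3 and Abca8a the groups do not overlap, and in Phex, Actn2 and Scn4b the male M2 is the lowest array of each genotype.

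Tmc3, of the transmembrane channel-like family, was higher in YAC128 striata and had the smallest p of all genes. It was at 6.68, 6.85, 6.84 and 7.08 in WT and at 7.39, 7.37, 7.33 and 7.34 in YAC128 striata. The YAC128 arrays agreed within 0.029 (SD) while the WT arrays spread with an SD of 0.17, and the difference was 0.50 (SE 0.088). Il17rb, a receptor for interleukin-25, was at 7.06, 7.01, 6.89 and 6.85 in WT and at 7.25, 7.21, 7.34 and 7.33 in YAC128 striata, also without overlap (difference 0.33, SE 0.074). Acy3, an aminoacylase, was at 7.56, 7.66, 7.56 and 7.73 in WT and at 7.86, 7.79, 7.90 and 8.02 in YAC128 striata (difference 0.27, SE 0.076). Abca8a, a transporter of the ABC family, lay between 7.61 and 7.87 in WT and between 7.99 and 8.13 in YAC128 striata (difference 0.27, SE 0.076).

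Usp25, a deubiquitinating enzyme, was higher by 0.19 (SE 0.061), Plekhh2 by 0.23 (SE 0.078) and the brain orphan receptor Gpr85 by 0.23 (SE 0.078), all without overlap. Of the other genes in the 15, Anp32-ps, Ldhal6b, Il2, Clca3a1, Myl1, Taar7e, H2-Aa and Olfr653 had differences between 0.21 and 0.29, and of these Anp32-ps, Ldhal6b and Olfr653 had means above the olfactory receptor level. Called genes were above that level in 106 of 153 cases among the lower genes (69.3%) and in 68 of 111 among the higher genes (61.3%), against 73.9% of all genes.

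Medium spiny neuron genes as a group had lower values in YAC128 striata. Of 33 genes of both pathways, 32 had a negative difference, where 45.5% of all genes did, and the median was −0.22 (all genes 0.01). Called were 6 of the 33, or 18.2%, all of them lower, against 0.767% of all genes called lower. The list mean was 11.06 ± 0.24 (SD, n = 4) in WT and 10.81 ± 0.27 in YAC128 striata, and the arrays overlapped, since the WT male M2 was at 10.72 and the YAC128 male M1 at 11.03. In a bulk sample, fewer cells of a type and less RNA per cell cannot be told apart. The members called, other than Rgs4, are also in the study's own table of genotype differences, drawn on these mice, so they are not independent of it. Over the 26 members outside that table, 25 were negative and the median was −0.18, with 1 called. They were measured on the same arrays, so they are no independent check. In 24 of them the male M2 was the lowest array of both genotypes.

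Actn2, an α-actinin that links actin to receptors in dendritic spines, was at 10.61, 10.90, 10.76 and 10.04 in WT and at 9.93, 10.12, 9.36 and 9.94 in YAC128 striata. It had the largest difference of the called genes named here, −0.74 (SE 0.21), and only the WT male M2 fell into the YAC128 range. Ryr1, the calcium release channel of the endoplasmic reticulum, was at 8.96, 9.22, 9.19 and 8.51 in WT and at 8.46, 8.68, 8.09 and 8.50 in YAC128 striata (difference −0.54, SE 0.18). Scn4b, a β subunit of voltage-gated sodium channels, was at 11.37, 11.63, 11.46 and 10.81 in WT and at 10.82, 11.11, 10.14 and 10.84 in YAC128 striata (difference −0.59, SE 0.23). In all 3 genes the male M2 was the lowest array of each genotype.

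Gpr155, a multipass membrane protein of lysosomes, had a difference of −0.47 (SE 0.15). Rgs4, which shortens signalling by G proteins, was at 11.31, 11.54, 11.14 and 10.83 in WT and at 10.64, 11.07, 10.48 and 10.96 in YAC128 striata (difference −0.42, SE 0.17). Cnr1, the cannabinoid receptor CB1, was at 9.83, 10.12, 9.73 and 9.27 in WT and at 8.92, 9.59, 9.29 and 9.41 in YAC128 striata (difference −0.43, SE 0.19). Its lowest YAC128 array was the female F1, and among males alone its difference was −0.07. Core members of dopamine signalling had differences that were not called, −0.33 (SE 0.22) for Ppp1r1b, −0.28 (SE 0.17) for the phosphodiesterase Pde10a, −0.38 (SE 0.19) for the adenylyl cyclase Adcy5 and −0.22 (SE 0.24) for Rgs9.

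The list was lowest in the arrays whose cortical list mean was highest. In 29 of the 33 genes the male M2 was the lowest array of both genotypes, against 13.3% of all genes. The part of cortical tissue in this was not tested. Without both arrays M2 the median was −0.16, with 31 of 33 negative and 13 called lower, and with the cortical list mean as a covariate it was −0.15. Without the YAC128 male M2 alone it was −0.079, and without the YAC128 male M1 and the WT male M2 it was −0.42. The number called went from 6 to 17 without the latter pair, to 3 with sex as a covariate and to 0 among males alone (3 against 2 arrays), where the median was −0.13. None of these made a probeset pass the adjusted test.

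**Figure D3:**
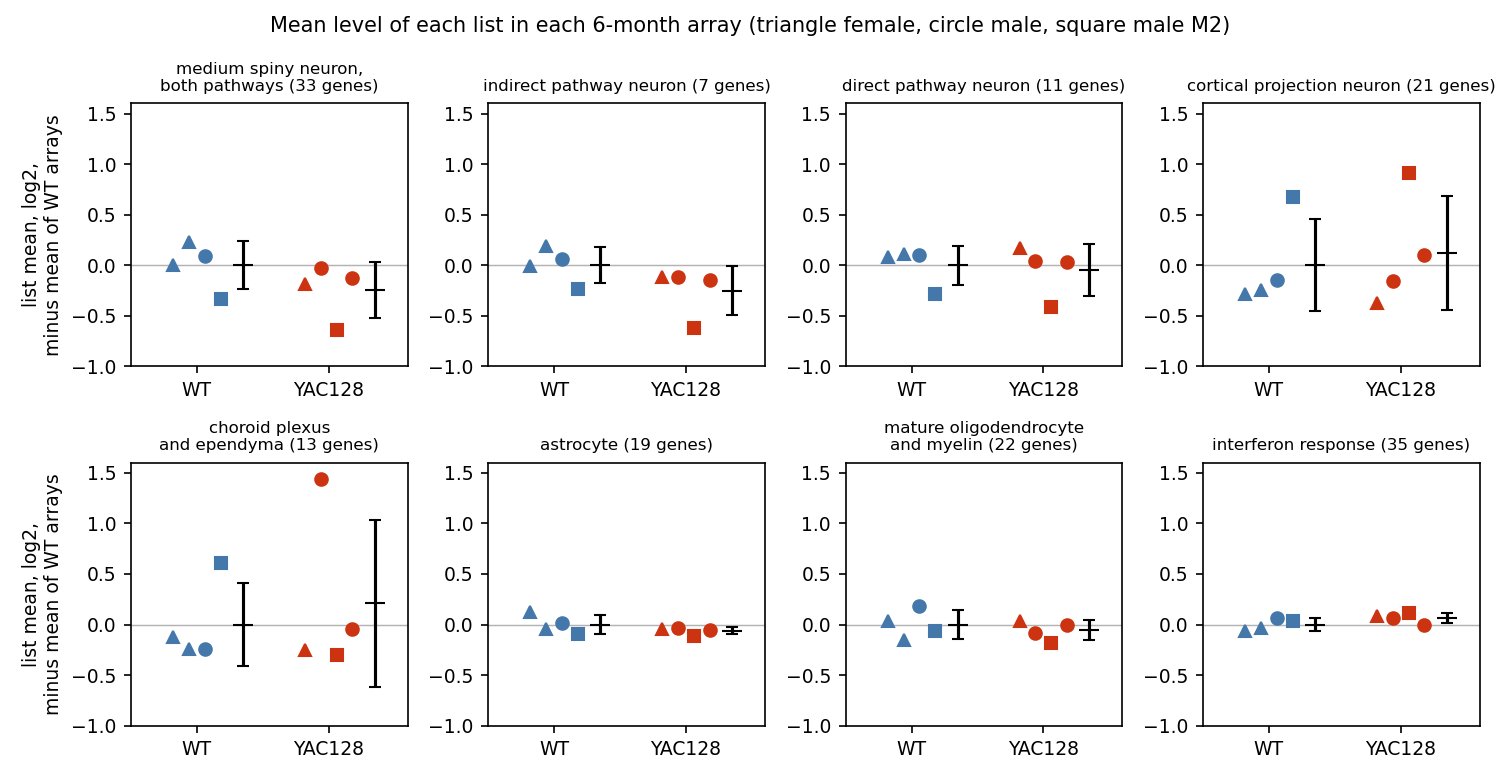
Mean of 8 gene lists in each array of 6 months (y axis, log2, relative to the mean of the WT arrays), with the mean and SD of each genotype (n = 4). The male M2 (squares) has the lowest medium spiny neuron and the highest cortical list mean in both genotypes, and the YAC128 male M1 has the highest choroid plexus list mean.

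All 7 indirect pathway genes had a negative difference, with a median of −0.28, and none was called. Penk was at 13.26, 13.38, 13.25 and 13.10 in WT and at 13.19, 13.12, 12.45 and 13.13 in YAC128 striata (difference −0.28, SE 0.16). The dopamine D2 receptor gene Drd2 was at 11.86, 12.09, 11.96 and 11.43 in WT and at 11.62, 11.78, 10.80 and 11.68 in YAC128 striata (difference −0.36, SE 0.22). In both genes the YAC128 male M2 was far below the other YAC128 arrays, which overlapped with WT. Gpr6, an orphan receptor of indirect pathway neurons, had a difference of −0.41 (SE 0.22). Without both arrays M2 the median of the list was −0.19 and all 7 were negative, and without the YAC128 male M2 alone it was −0.12.

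Of 11 direct pathway genes, 7 were negative and the median was −0.05. Drd1, the dopamine D1 receptor gene, had a difference of −0.17 (SE 0.19), and Tac1, the substance P precursor, of 0.17 (SE 0.20). Eya1, a transcriptional coactivator with phosphatase activity, was the 1 called member (9.09%, all genes called higher 0.557%). It was at 8.32, 8.47, 8.27 and 8.14 in WT and at 8.45, 8.66, 8.73 and 8.48 in YAC128 striata (difference 0.28, SE 0.096). Its WT female F2 overlapped with the YAC128 female F1. The median of the list was 0.0043 without both arrays M2 and 0.02 with the cortical list mean as a covariate, so its sign depended on these arrays. Whether the 2 pathways differ from each other was not tested.

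Other neuronal groups are given beside the share of all genes called lower, 0.767%. Of 59 ion channel genes, 42 were negative and 4 were called lower (6.78%), among them Ryr1 and Scn4b of the medium spiny neuron list. Hvcn1, a voltage-gated proton channel, lay between 7.003 and 7.31 in WT and between 6.78 and 6.98 in YAC128 striata (difference −0.24, SE 0.086), and Scn1a, a sodium channel α subunit, had −0.17 (SE 0.074). Of 60 genes of synapses and ionotropic receptors, 4 were called lower (6.67%). Beside Actn2 these were the vesicle calcium sensor Syt2 with −0.35 (SE 0.11), the scaffold Homer1 with −0.21 (SE 0.091) and Erbin with −0.20 (SE 0.080). Of 41 genes of cyclic AMP and G protein signalling, Rgs4 alone was called (2.44%), and the median was −0.02.

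Of 54 G-protein coupled receptors of transmitters and peptides, Cnr1 was called lower and Htr2a higher (1.85% each). Of all genes, 0.767% were called lower and 0.557% higher. Htr2a, the serotonin 2A receptor gene, was at 9.31, 9.62, 9.79 and 10.13 in WT and at 9.88, 10.11, 10.29 and 10.25 in YAC128 striata. Only the WT male M2 overlapped with the YAC128 arrays, and the difference was 0.42 (SE 0.17), with an exact two-sided permutation p of 0.08571. Among males alone its difference was 0.25, the smallest over all alternatives. Bdnf, which encodes a neurotrophin that cortical axons deliver to the striatum, was at 6.40, 6.62, 6.55 and 6.93 in WT and at 6.36, 6.66, 6.87 and 6.71 in YAC128 striata (difference 0.03, exact permutation p = 0.8286). Its highest array was the male M2 in each genotype. Grk4, a kinase of G-protein coupled receptors, had a difference of 0.05 (exact permutation p = 0.4857). The means of Bdnf and Grk4 were under the olfactory receptor level of 6.78. Their values therefore cannot tell an unchanged gene from one that was not detected.

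In glia, the myelin list held the most calls, 3 of 22 lower (13.6%) and 1 higher (4.55%). Of all genes, 0.767% were called lower and 0.557% higher. Mal, a raft protein of myelin, was at 10.83, 10.72, 11.28 and 10.88 in WT and at 10.55, 10.66, 10.47 and 10.70 in YAC128 striata (difference −0.33, SE 0.12). The groups did not overlap, and the WT male M1 was the highest array. Tspan2, a tetraspanin of oligodendrocytes, had a difference of −0.31 (SE 0.12) and Cldn11, the claudin of myelin tight junctions, of −0.26 (SE 0.10). Anln, an actin-binding protein, was at 9.004, 8.85, 9.09 and 8.96 in WT and at 9.29, 9.17, 9.08 and 9.29 in YAC128 striata. It was higher by 0.23 (SE 0.081). Tspan2 is also in the study's table of genotype differences, and Anln among its genes that differ by genotype over time. The study drew both on these mice, so these calls are not independent of it.

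The classical myelin genes Mbp, Mog and Cnp had differences of −0.03 (SE 0.085), −0.03 (SE 0.11) and 0.01 (SE 0.11). Enpp6, made by newly differentiating oligodendrocytes, was higher by 0.28 (SE 0.10). It was the 1 called gene of 14 on the precursor list (7.14%, all genes called higher 0.557%), and is in the study's table too. None of 19 astrocyte genes was called, though 14 were negative with a median of −0.06. Glul, the glutamine synthetase gene, was at −0.12 (SE 0.076), and the gap junction gene Gja1 at −0.06 (SE 0.092). Of 18 microglial genes, none was called and the median was −0.04.

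Of 35 interferon response genes, 28 were positive, with a median of 0.07, and none was called. Ifit1, an antiviral protein that binds foreign RNA, was at 6.81, 6.85, 7.15 and 6.83 in WT and at 7.45, 6.84, 7.21 and 6.96 in YAC128 striata (difference 0.21, SE 0.14). Only the YAC128 female F1 and male M2 were above every WT array, and among males alone the median of the list was −0.01. Of 16 antigen presentation genes, H2-Aa, an MHC class II chain, was called higher (6.25%, all genes 0.557%). It was at 5.68 to 5.89 in WT and 5.85 to 6.14 in YAC128 striata (difference 0.28, SE 0.088).

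Of 34 protocadherins, cell adhesion proteins of neurons encoded in gene clusters, 24 had a positive difference, with a median of 0.07. Called were Pcdhb19 with 0.26 (SE 0.099) and Pcdhb9 with 0.34 (SE 0.14), which is 5.88% of the list, against 0.557% of all genes called higher. Members of a cluster are near-identical in parts, and hybridisation to more than 1 of them cannot be told apart. Of 60 ribosomal protein genes, Rps25 was called higher (1.67%, all genes 0.557%), with 0.19 (SE 0.085), but its 6 probesets ran from −0.0025 to 0.31. Of 1011 olfactory receptors, 17 were called lower (1.68%) and 4 higher (0.396%), against 0.767% and 0.557% of all genes. No member was called among the genes of striatal interneurons, cortex, thalamus, choroid plexus, endothelium, blood, the immediate early response, the circadian clock, cholesterol synthesis, oxidative phosphorylation, chaperones, the proteasome, neurotrophins and polyglutamine disease.

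The list medians of cortex (0.13) and choroid plexus (0.19) each turned negative with 1 array left out. The cortical median was −0.13 without the YAC128 male M2 and −0.02 with sex as a covariate. The choroid plexus median was −0.16 without the YAC128 male M1. Both stayed positive in the fits run without an array of each genotype. These pairs of arrays were chosen after the data were seen, and other pairs were not run. Without both arrays M2 the medians were 0.08 for cortex and 0.49 for choroid plexus. Without the YAC128 male M1 and the WT male M2 they were 0.45 and 0.03.

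**Figure D4:**
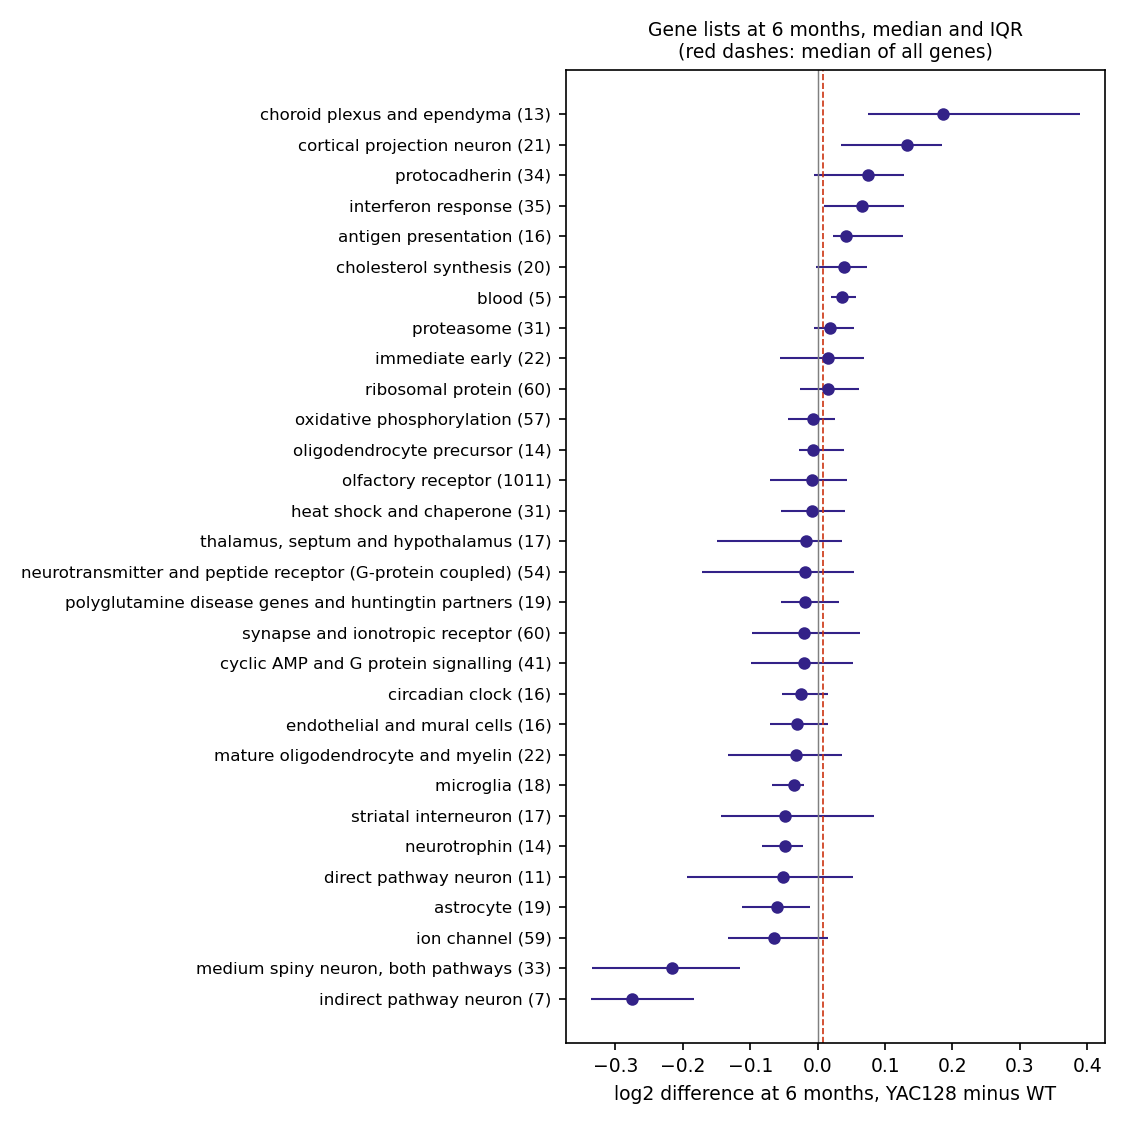
Median log2 difference (YAC128 minus WT, points) and interquartile range of the members (lines) of 30 gene lists at 6 months, with the number of genes in parentheses. The lists of indirect pathway (−0.28) and shared medium spiny neuron genes (−0.22) stand lowest and those of choroid plexus (0.19) and cortex (0.13) highest, and the last 2 medians turn negative without 1 array.

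The start sites of these genes were searched for the response elements of the pathways they belong to, in windows from 250 bases before to 50 bases after the start in RefSeq (GRCm38.p6), on both strands. The cyclic AMP response element TGACGTCA was in 2.72% of the windows of 15613 genes and in none of the 29 medium spiny neuron genes with a window, and among the indirect pathway genes in Gpr6. It was in 1 of 112 called lower genes (0.893%) and in 1 of 79 called higher genes (1.27%). The interferon-stimulated response element was taken as GAAA on both sides of any 2 bases. It was in 3.89% of all genes, in 11 of 24 interferon response genes and in 2 of 29 medium spiny neuron genes. Called lower genes held it in 4 of 112 cases (3.57%) and called higher genes in 6 of 79 (7.60%). Whether these shares differ was not tested. The windows of Gpr6 and of Ifit1, neither of them called, are printed as holders of each element, with the element in capitals on either strand. A match is a description and not a binding site.
Gpr6 (chr10:41072241-41072540, minus strand): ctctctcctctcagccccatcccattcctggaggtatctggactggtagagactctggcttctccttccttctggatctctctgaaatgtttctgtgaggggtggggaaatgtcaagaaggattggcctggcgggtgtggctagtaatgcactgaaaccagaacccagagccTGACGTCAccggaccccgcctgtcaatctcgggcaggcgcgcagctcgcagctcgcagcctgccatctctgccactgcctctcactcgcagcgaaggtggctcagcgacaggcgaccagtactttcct
Ifit1 (chr19:34640639-34640938, plus strand): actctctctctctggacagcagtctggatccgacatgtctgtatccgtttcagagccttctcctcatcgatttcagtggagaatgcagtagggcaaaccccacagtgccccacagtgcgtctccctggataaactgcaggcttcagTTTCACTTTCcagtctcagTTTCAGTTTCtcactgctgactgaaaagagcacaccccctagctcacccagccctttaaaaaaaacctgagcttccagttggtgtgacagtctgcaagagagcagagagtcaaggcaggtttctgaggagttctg

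The mice of 12 and 18 months were other animals than those of 6 months, and they gave the same comparison in separate arrays. Of the 264 genes called at 6 months, 62.9% had the same sign at 12 months and 82.6% at 18 months, where 53.6% and 61.4% of all genes did. The lower genes had the same sign in 73.2% and 86.3%, and the higher genes in 48.6% and 77.5%, so that at 12 months the higher genes were under the share of all genes. The same sign with a p under 0.05 was found for 25.8% at 12 months and 21.6% at 18 months, against 3.25% and 2.74% of all genes. Called at all were 4.66% of genes at 12 months (3.22% lower and 1.44% higher) and 3.56% at 18 months (1.96% lower and 1.61% higher). At all 3 ages 37 of the 264 genes were called with 1 sign, 29 lower and 8 higher. Of all 19937 genes, called at 6 months or not, 145 kept their sign and had a p under 0.05 at both later ages. These counts and shares describe genes that are not independent of each other. Called genes above the olfactory receptor level had the same sign in 78.2% of 174 cases at 12 months and 89.1% at 18 months. Of all genes above that level, 55.5% and 63% did. The 90 called genes under it had the same sign in 33.3% and 70%. The difference between these classes was not tested.

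Phex was at −0.73 at 6 months, −0.65 at 12 and −0.71 at 18 months. Actn2 was at −0.74, −0.59 and −1.005, Ryr1 at −0.54, −0.48 and −0.85, and Scn4b at −0.59, −0.40 and −0.64. In the other direction, Tmc3 was at 0.50, 0.43 and 0.71, Htr2a at 0.42, 0.46 and 0.36, and Enpp6 at 0.28, 0.38 and 0.40. All of these had an unadjusted p under 0.05 at each age. Others were called at 6 months with values near 0 later, among them Xdh with 0.05 and 0.07 and Myl1 with −0.01 and −0.07. The genes called at all 3 ages also held Il33, an alarm cytokine, Bmp2, a growth factor, Cdk19, a kinase of the Mediator complex, and Plk5, a polo-like kinase, which were singled out after their values were seen.

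The medians of the medium spiny neuron list were −0.22, −0.11 and −0.29 at the 3 ages, and those of the indirect pathway list −0.28, −0.15 and −0.41. Of the 33 shared genes, 6, 14 and 8 were called lower, where 0.767%, 3.22% and 1.96% of all genes were. Members in the study's table are not independent of these ages, since that table used mice of all 3. Interferon response genes had medians of 0.07, 0.08 and 0.16, with 0, 8 and 10 called higher. Protocadherins had 2, 11 and 3 called higher. Of all genes, 0.557%, 1.44% and 1.61% were called higher at the 3 ages. Ifit1 was at 0.41 and 0.40 in the older mice. A change of the genotype effect from 6 months passed the adjusted test for no probeset. At an unadjusted p under 0.05 it was found for 1016 probesets at 12 months (2.92%) and 943 at 18 months (2.71%), so the lower counts at 6 months are not shown to differ from those of the older mice.

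**Figure D5:**
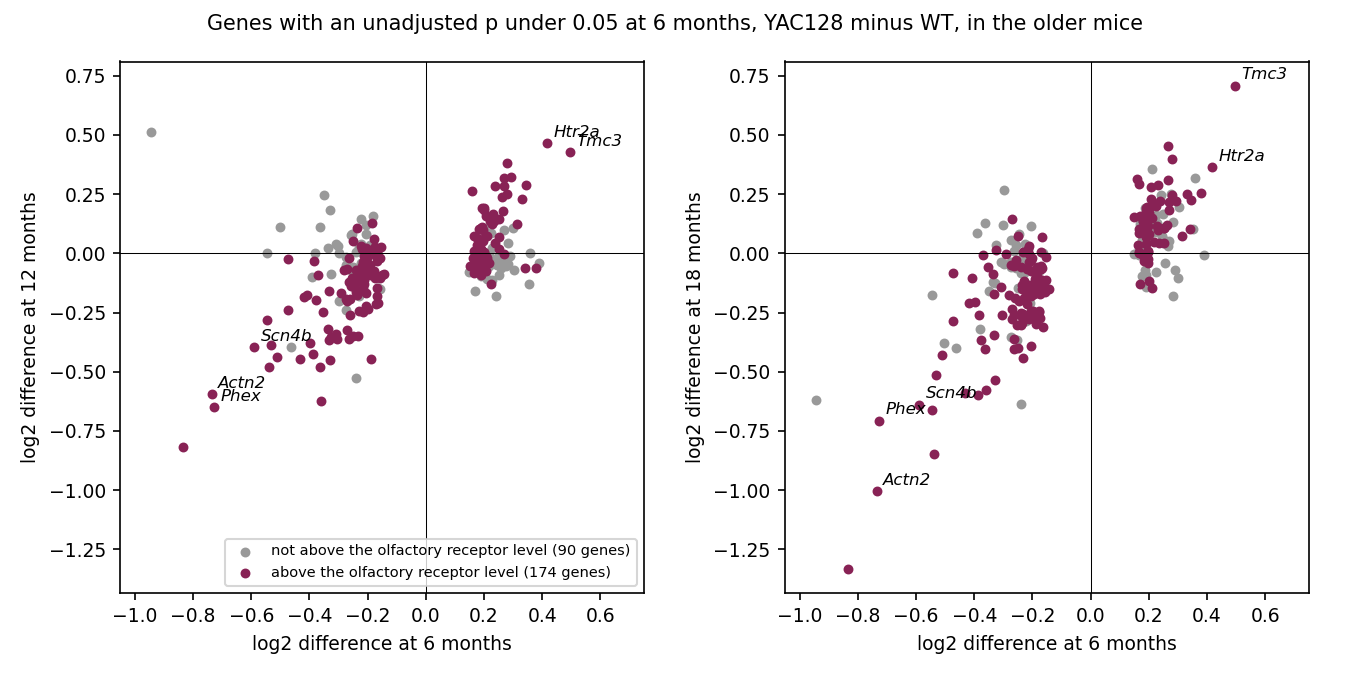
Log2 difference between YAC128 and WT of the 264 genes called at 6 months (x axis) against the difference of the same genes at 12 months (left) and 18 months (right), in other mice. Of the 174 genes above the olfactory receptor level, 78.2% lie in the quadrants of equal sign at 12 months and 89.1% at 18 months, and Phex, Actn2 and Scn4b are low in both panels.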

How the data were processed

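Striatal RNA was hybridised to Affymetrix mouse gene arrays, 1 array per labelled replicate. Per the labels and the study's methods, the authors computed log2 values by robust multichip average, which corrects the background, quantile normalizes and summarises each probeset; the deposited values were used as they are, with array medians between 7.42 and 7.52 at 6 months and no identical arrays. The software version is not given in the sources used here. Precision is limited by the number of arrays. A limma p sets a difference against the spread between arrays of a genotype, moderated over all probesets. It takes the arrays as independent.

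Of 34760 probesets, 21640 carry 1 gene symbol in the platform annotation, 1321 several and 11799 none, and a gene was described by its probeset of the highest mean over all 26 arrays. The fits used lmFit and eBayes of limma 3.58.1, run in R 4.3.3, on the 8 arrays of 6 months with no covariate, and the Benjamini-Hochberg adjustment was taken over every probeset. The fit was tested on simulated data. Htt, Bdnf, Htr2a and Grk4 were tested by exact permutation. Genes are named by a rule: the 15 of smallest p in each direction, up to 5 called members of each list, the first 2 members of each cell type list, and the genes just given. Genes outside it, such as Adcy5, Pde10a, Ifit1, Gpr6 and Cnp, were chosen after their values were seen. Members and the 30 gene lists were chosen with earlier results of these data known. The study states more mice than were analysed here.

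Alternatives were all 26 arrays in 1 fit, sex as a covariate, males only, the replicate number as a block, quantile normalization, median centring, a filter at the olfactory receptor level, 1 probeset per gene, trend and robust options, array weights, the cortical list mean as a covariate, and each array left out. After the data were seen, fits without both arrays M2, without the YAC128 male M1 and the WT male M2, and with cortical and choroid plexus covariates were added.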

Additional observations from a re-analysis of the deposited data

Results flagged for a closer look

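Over 124 sets of 4 arrays, made of the named genes and list means of 1 genotype, 11 had an array set apart. Its gap to its nearest neighbour took up more of the range of the 4 than Dixon's 95% limit. Independent sets would give about 1 in 20 by chance, but these sets share arrays and many genes were named for a small p. The 11 are therefore not measured against that rate. Values here are the share of the range that the gap took up. For the WT male M2 it was 0.917 in Galnt13, 0.929 in Taar7e, 0.922 in the direct pathway list mean, 0.862 in the cortical list mean and 0.854 in the choroid plexus list mean. For the YAC128 male M2 it was 0.931 in Hvcn1 and 0.937 in the indirect pathway list mean. The YAC128 male M1 had 0.855 in the choroid plexus list mean, the YAC128 female F1 had 0.863 in Pmis2, the WT female F1 had 0.92 in Olfr1252 and the WT male M1 had 0.839 in Erbin. What sets these arrays apart was not tested.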

How the results depend on the processing

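No probeset passed the adjusted test in any of the alternatives. Of 9 list medians, those of shared medium spiny neuron genes, indirect pathway genes, astrocytes and ion channels were negative in all alternatives run. The others changed sign, with a range of −0.1331 (without the YAC128 male M2) to 0.4542 for cortex, −0.1649 (without the YAC128 male M1) to 0.4921 for choroid plexus, −0.1893 to 0.1195 for the direct pathway, −0.1097 to 0.04494 for myelin and −0.0119 to 0.1037 for interferon genes. The 153 lower and 111 higher genes became 279 and 264 with all 26 arrays in the fit, 716 and 792 with array weights, 283 and 182 with the cortical covariate, 256 and 191 with both covariates, 328 and 212 without both arrays M2, and 368 and 268 without the YAC128 male M1 and the WT male M2. Quantile normalization gave 252 lower and median centring 52 higher genes. With 1 array left out at a time they ran from 80 (without the WT male M1) to 429 lower and from 57 (without the WT female F2) to 410 higher, both maxima without the WT male M2. The 909 probesets became 547 above the olfactory receptor level, 339 with 1 per gene, 3485 with array weights, 1426 without both arrays M2 and 1530 without the YAC128 male M1 and the WT male M2, and 687 to 1955 with an array left out. The 6 medium spiny neuron genes became 3 with sex as a covariate, 0 among males, 13 and 17 without those pairs of arrays, 10 with both covariates, and 3 to 9 with an array left out. The negative interferon median was that of males. The share of equal sign was 73.33% at 12 months for genes with p under 0.01, and ran from 58.28% to 73.64% at 12 months and from 70.79% to 85.94% at 18 months with an array left out. The cause was not tested, beyond the fewer arrays or probesets that some alternatives hold.

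Whether the shared replicate numbers F1, M1 and M2 pair the arrays cannot be decided from 3 pairs. The correlation of their deviations was 0.488, 0.0463 and 0.373. F1 and M2 correlated best with their own number, and M1 did not. With the number as a block, 1369 probesets, 11 medium spiny neuron genes and 179 lower and 128 higher genes were called. Of 53 named genes called, 32 to 53 stayed past the threshold over the alternatives, with the fewest among males, and 37 did so with each array left out in turn. Cnr1, Rps25, Homer1 and Scn1a did so in 2 of 8 or fewer. The number of arrays, 4 against 4, limits what could pass.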
